A study of Bos grunniens and Bos grunniens x Bos taurus with 12 samples.

Results

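Ribo-seq of the testis was compared between 3 cattle–yaks and 3 yaks of 18 months, which together are 6 of the 12 libraries of the series. All libraries that the labels assign to these groups were taken, and gene values deposited in separate tables were joined on the gene identifier. In Ribo-seq, the pieces of mRNA covered by ribosomes (ribosomal footprints) are sequenced, so a level given here is a translation level. The cattle–yaks (CY) were *Bos grunniens* x *Bos taurus* hybrids, which the study's methods describe as sired by Jersey cattle out of Gannan yaks, and their labels give 4 years and sexual maturity. The yaks (*Bos grunniens*) of 18 months (Y18M) are labelled as being at puberty. Hybrid origin and an age difference of 18 months against 4 years therefore coincide in this comparison, and they cannot be told apart by these 6 libraries. For this reason the values of the other yaks of the series, 3 of 6 months (Y6M) and 3 of 4 years (Y4Y), are given beside many results. The labels state that testes of all groups came from castration, whereas the methods state euthanasia for the yaks of 4 years and castration for the cattle–yaks.

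In the seminiferous tubules, spermatogonia divide and enter meiosis as spermatocytes, which complete meiosis to form round spermatids, and these elongate into sperm with a condensed head and a tail. Sertoli cells nurse the germ cells and seal the tubule with the blood–testis barrier, peritubular myoid cells contract around it, and Leydig cells between the tubules make testosterone. Male cattle–yaks are sterile, and their germ cells mostly stop before spermatids form, whereas the testis of a yak at puberty is at the start of its first waves of sperm production.

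The total expected count on genes was 21309151 to 24542362 per Y18M library and 38437889 to 52616039 per CY library. With these totals, a gene without a count in a library may hold up to 3 counts, which is a CPM (count scaled to the library total) of 0.122 to 0.141 in Y18M and 0.057 to 0.078 in CY, and this limit covers counting error only. Pearson's correlation of log2(FPKM + 1) over all genes, where FPKM is the count scaled to gene length and to the total of the library, was on average 0.929 between a CY and a Y18M library, 0.909 between a CY and a Y6M library and 0.846 between a CY and a Y4Y library. The same test for differentially translated genes (DTGs) gave 910 DTGs of CY against Y18M, 5890 against Y6M and 7267 against Y4Y. The number of DTGs also depends on the spread within each group. The 10 most abundant genes held 12.5% to 19.5% of the counts in the Y18M libraries and 7.09% to 7.51% in the CY libraries. The mean correlation with the CY libraries was 0.895 for Y18M replicate 2, below the 0.900 to 0.916 of the 3 Y6M libraries.

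The 3 yaks of 18 months differed strongly from each other, and replicate 2 stood apart. Its mean correlation was 0.974 with the Y4Y libraries and 0.887 with the other 2 libraries of its own group, while replicate 1 correlated with the Y6M libraries at a mean of 0.979 and replicate 3 with the CY libraries at 0.960. The FPKM of *TNP1*, a transition protein that replaces histones in elongating spermatids, was 0, 6016 and 9.72 in Y18M replicates 1, 2 and 3, 23.5, 2.89 and 0 in CY replicates 1, 2 and 3, and 6993 to 10150 in Y4Y. *PRM2*, the protamine that follows it on sperm DNA, was at 0.23, 932 and 2.77 in Y18M and at 1.14, 0.35 and 0 in CY. Replicate 2 thus had translation levels of spermatid genes near those of the adult yaks, far above the other 2 yaks of 18 months and the 3 cattle–yaks. Replicate 2 was the highest of the 6 libraries for 28.9% of tested genes. List counts below are therefore given with and without it, and single genes where their call changed, and its part in the other differences was not tested.

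A gene was counted as a DTG when it had an adjusted p below 0.05 and at least a 2-fold difference. Of 15702 tested genes, 910 were DTGs (5.8%), of which 542 (3.45% of tested genes) were higher and 368 (2.34%) were lower in cattle–yak. The CPM of all 910 DTGs did not overlap between the groups, as in 38.6% of all tested genes. Without Y18M replicate 2, 16139 genes were tested, 2464 were DTGs (15.3%), and 1166 (7.22%) were higher and 1298 (8.04%) lower, including 510 of the 542 and 363 of the 368. Over all tested genes the log2 fold change had a median of −0.13, which was −0.22 with upper quartile scaling and −0.00 with library size alone, so the fold changes of lists are read beside this shift. The calls depended on each cattle–yak library. When CY replicate 1, 2 or 3 was left out, edgeR called 0 genes at the adjusted threshold, with 2956, 3301 and 3005 genes at an unadjusted p under 0.05, whereas DESeq2 called 1748, 1955 and 1793 genes in the same libraries. For 505 of the 542 higher DTGs (93.2%), the 3 CY libraries had a higher FPKM than all 9 yak libraries, against 17.3% of all tested genes. For 192 of the 368 lower DTGs (52.2%), they had a lower FPKM than all 9 yak libraries, against 4.16% of all tested genes. The DTGs were chosen by their difference from 3 of these 9 libraries, so shares above those of all tested genes were fixed in advance. The shares over all genes lean to the higher side, so positions among the 9 yaks are read beside them below.

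Genes with the largest differences were taken from the DTGs with a symbol, a level above the median, and a call in the same direction without Y18M replicate 2. The 12 highest rose 8.63-fold to 18.5-fold in cattle–yak. *ALOX12*, a lipoxygenase that acts on arachidonic acid, had an FPKM of 0.85, 4.81 and 5.37 in Y18M and 77.3, 69.1 and 66.9 in CY (log2 fold change 4.21 ± 0.60 SE, adjusted p = 0.026). *EPAS1*, the hypoxia-inducible transcription factor HIF-2α, was at 1.25, 7.73 and 6.23 in Y18M and at 70.8, 64.4 and 57.7 in CY (log2 fold change 3.61 ± 0.57 SE, adjusted p = 0.0289). *HK2*, a hexokinase that starts glycolysis, was at 2.45, 17.5 and 10.9 in Y18M and 124, 88.2 and 92.7 in CY (log2 fold change 3.25 ± 0.60 SE, adjusted p = 0.0357). In all of these the lowest cattle–yak library was far above the highest yak library, and the cattle–yaks differed little from each other.

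*CA5B*, a carbonic anhydrase of mitochondria, was the most abundant of the 12, with an FPKM of 16.7, 31.4 and 24.4 in Y18M and 218, 214 and 208 in CY (log2 fold change 3.28 ± 0.27 SE, adjusted p = 0.0078). *RENBP*, an epimerase of N-acetylglucosamine that binds renin, had 6.50, 26.7 and 13.4 in Y18M and 194, 153 and 212 in CY (log2 fold change 3.51 ± 0.45 SE, adjusted p = 0.0226). *MOCS1*, which starts the synthesis of the molybdenum cofactor, had the closest values, with 1.87, 2.13 and 1.80 in Y18M and 20.6, 20.3 and 20.4 in CY (log2 fold change 3.28 ± 0.21 SE, adjusted p = 0.00436). The receptor of parathyroid hormone, *PTH1R*, was at 2.17, 3.50 and 3.65 in Y18M and 45.6, 31.9 and 36.9 in CY. Among proteases, *ADAM8* was at 1.13, 2.62 and 2.15 in Y18M and 30.9, 26.5 and 28.4 in CY, the membrane protease *HPN* at 1.77, 9.17 and 6.63 in Y18M and 49.5, 72.3 and 63.9 in CY, and *MASP1* of the lectin pathway of complement at 1.18, 4.46 and 0.28 in Y18M and 36.7, 46.96 and 22.7 in CY. *MASP1* had the highest adjusted p of the 12 genes (0.0492). The kelch protein *KLHL14* was at 0.9, 0.76 and 1.17 in Y18M and 25.3, 20.8 and 10.1 in CY, and the sorting nexin *SNX33* at 1.69, 6.37 and 3.46 in Y18M and 30, 33.3 and 41.2 in CY.

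None of these 12 genes had an adult yak library within the cattle–yak range. The Y4Y FPKM was 7.39 to 13.3 for *ALOX12*, 10.7 to 16.1 for *EPAS1*, 16.3 to 20.3 for *HK2* and 36.6 to 42.5 for *CA5B*. All 12 had a higher mean in Y4Y than in Y18M, and in all 12 the 3 cattle–yaks exceeded each of the 9 yak libraries. Of all 542 higher DTGs, 388 had a higher mean in Y4Y than in Y18M, and the ranges of CY and Y4Y overlapped for 32.

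**Figure D1:**
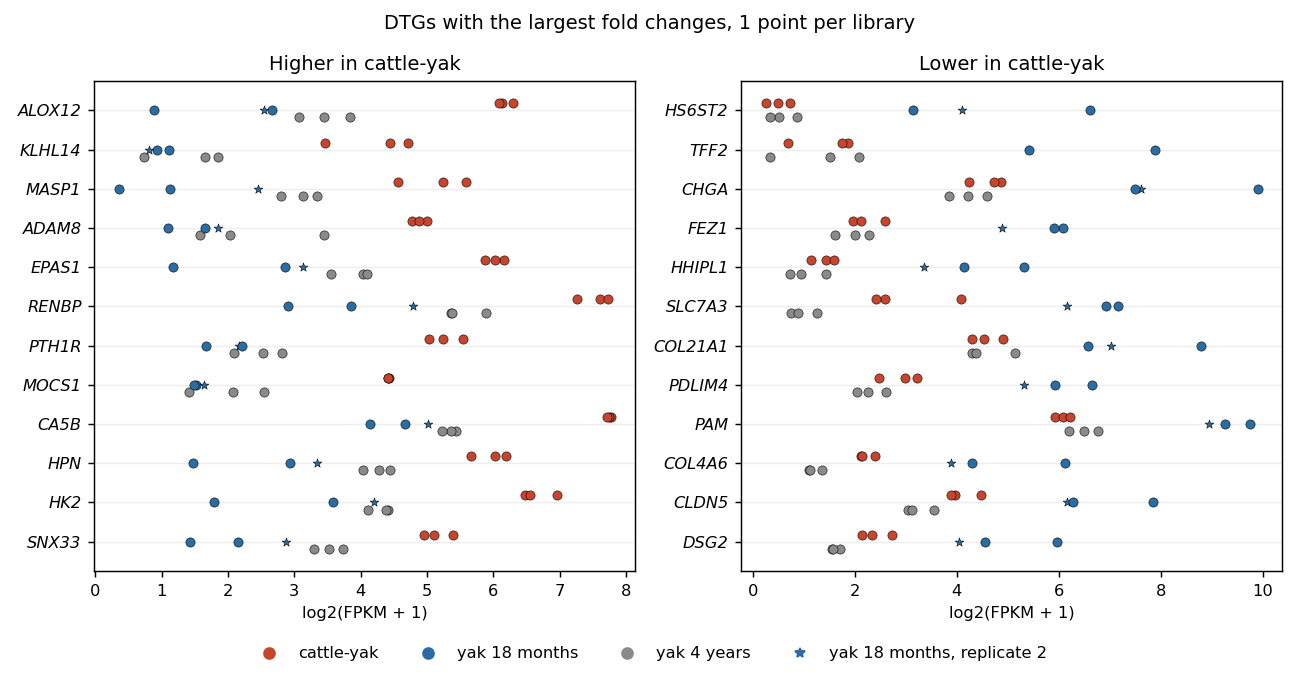
Translation level, as log2(FPKM + 1) on the horizontal axis, of the 12 highest and 12 lowest named DTGs of cattle–yak against yak of 18 months, with 1 point per library and yaks of 4 years in grey. In the left panel the 3 cattle–yak points lie to the right of all yak points for each gene, and in the right panel the ranges of the grey and the cattle–yak points overlap for 8 of the 12 genes, and for *SLC7A3* and *COL4A6* the grey points lie further to the left.

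The 12 lowest fell 8.72-fold to 117-fold in cattle–yak. *HS6ST2*, which adds sulfate to heparan sulfate chains, had an FPKM of 96.2, 16.1 and 7.85 in Y18M and 0.4, 0.19 and 0.65 in CY (log2 fold change −6.87 ± 1.28 SE, adjusted p = 0.036). The trefoil peptide *TFF2* had 234, 41.7 and 41.6 in Y18M and 2.65, 2.34 and 0.6 in CY (log2 fold change −6.08 ± 1.11 SE, adjusted p = 0.0349). *CHGA*, chromogranin A of secretory granules, was at 957, 194 and 179 in Y18M and 28.04, 17.97 and 25.5 in CY (log2 fold change −4.50 ± 0.86 SE, adjusted p = 0.0379). Y18M replicate 1 was several times higher than the other 2 yaks for all 3 genes, and the cattle–yaks lay below each of them.

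*PAM*, the enzyme that amidates peptide hormones, was abundant and even in Y18M, at 863, 494 and 612, and was at 60.1, 66.5 and 73.9 in CY (log2 fold change −3.48 ± 0.36 SE, adjusted p = 0.0169). *FEZ1*, an adaptor of transport along microtubules, was at 66.6, 28.6 and 58.7 in Y18M and 2.88, 3.34 and 5.02 in CY (log2 fold change −3.96 ± 0.48 SE, adjusted p = 0.0201). *SLC7A3*, a transporter of cationic amino acids, was at 121, 70.7 and 142 in Y18M and 5.05, 15.9 and 4.32 in CY (log2 fold change −3.89 ± 0.63 SE, adjusted p = 0.0295), and unlike the others it was lower in all Y6M libraries (1.93 to 15.8) than in Y18M. Matrix and junction genes were the collagens *COL21A1*, at 440.4, 128 and 94.8 in Y18M and 18.8, 22.2 and 29 in CY, and *COL4A6*, at 68.3, 13.8 and 18.7 in Y18M and 3.34, 4.24 and 3.41 in CY, the desmosomal cadherin *DSG2*, at 61.5, 15.5 and 22.4 in Y18M and 3.38, 5.62 and 4.02 in CY, and the tight junction protein *CLDN5*, at 229, 70.8 and 77.04 in Y18M and 14.6, 21.1 and 13.7 in CY. The remaining 2 were *PDLIM4*, which binds actin, at 99.3, 38.7 and 59.3 in Y18M and 6.92, 8.36 and 4.52 in CY, and *HHIPL1*, at 38.98, 9.17 and 16.6 in Y18M and 1.2, 1.71 and 1.99 in CY.

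In contrast to the higher genes, these 12 were also low in the adult yak. All Y4Y libraries were below all Y18M libraries for each of the 12, and the ranges of CY and Y4Y overlapped for 8 of them. This does not hold for most of the 368 lower DTGs. All Y4Y libraries were below all Y18M libraries for 163 of these, and CY and Y4Y overlapped for 90. The Y4Y mean was above the Y18M mean for 143. For *HS6ST2* the Y4Y FPKM was 0.26 to 0.81, for *CHGA* it was 13.4 to 23.1, and for *PAM* it was 72.9 to 108. Age and hybrid origin cannot be told apart for these genes, and CY was tested here against Y18M alone.

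Genes of germ cells were examined by stage. In Ribo-seq of whole testis, fewer cells of a type, less RNA per cell and less translation per RNA cannot be told apart. This holds for all cell type genes below. Of 16 tested genes of undifferentiated spermatogonia, 3 were higher (18.8%, against 3.45% of all tested genes) and 1 was lower (6.25%, against 2.34%) in CY, with a median of −0.13. Without Y18M replicate 2 it was 4 higher (23.5%, against 7.22%) and 1 lower (5.88%, against 8.04%) of 17. *ID4*, which marks spermatogonial stem cells, had an FPKM of 23.2, 42.99 and 72.6 in Y18M and 213, 211 and 204 in CY (log2 fold change 2.07 ± 0.36 SE, adjusted p = 0.0316). The RNA-binding protein *NANOS3* was at 6.60, 12.7 and 13.1 in Y18M and 31.2, 29.6 and 27.2 in CY (log2 fold change 1.33 ± 0.28 SE, adjusted p = 0.0441), and *TAF4B*, a TFIID subunit needed to maintain spermatogonia, was at 4.87, 11.3 and 8.18 in Y18M and 18.9, 23.4 and 22.9 in CY (log2 fold change 1.33 ± 0.26 SE, adjusted p = 0.0385). All 3 were higher in each cattle–yak than in each of the 9 yaks. *MORC1*, which silences transposons, was at 1.65, 1.44 and 1.95 in Y18M and 0.2, 0.11 and 0.22 in CY (log2 fold change −3.41 ± 0.44 SE, adjusted p = 0.023), and each cattle–yak was below each of the 9 yaks. Of the defining markers, *ZBTB16*, *GFRA1* and *RET* did not pass the test, and *ZBTB16* had 8.11, 12.2 and 15.7 in Y18M and 18.8, 27.1 and 25.4 in CY (adjusted p = 0.0916). The list as a whole thus had the median of all genes, while single genes differed in both directions.

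Of 12 genes of differentiating spermatogonia and meiotic entry, 0 were higher and 1 was lower (8.33%, against 2.34% of all tested genes) with all libraries. *CCND2*, a cyclin of spermatogonia and somatic cells, was at 190, 94.5 and 159.8 in Y18M and 29.6, 49.8 and 26 in CY (log2 fold change −2.26 ± 0.42 SE, adjusted p = 0.0357). *STRA8*, which licenses entry into meiosis, was at 0.41, 5.64 and 1.07 in Y18M and 15.6, 10.8 and 14.7 in CY, where each cattle–yak exceeded all 9 yaks. The gene did not pass the test with all libraries (adjusted p = 0.111) and passed without Y18M replicate 2 (log2 fold change 4.03, adjusted p = 0.005). *MEIOC* and *YTHDC2*, partners that hold cells in meiotic prophase, were also called without it, so 3 were higher there (25%, against 7.22% of all tested genes). *KIT*, a receptor of differentiating spermatogonia and Leydig cells, did not differ by more than the spread, at 53.8, 53.5 and 45.05 in Y18M and 43.5, 49.2 and 56.5 in CY.

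Of 35 genes of meiotic prophase, 0 passed the test with all libraries, and their log2 fold changes had a median of 0.11. Without Y18M replicate 2, 8 were higher (22.9%, against 7.22% of all tested genes) and 0 lower, with a median of 1.08 beside −0.03 for all genes. *SYCP1*, the central filament of the synaptonemal complex, had an FPKM of 2.82, 23.3 and 10.2 in Y18M and 29.1, 10.6 and 18.1 in CY. *SYCP2*, of the lateral element, had 0.36, 22.4 and 2.36 in Y18M and 20.6, 7.04 and 7.61 in CY (adjusted p = 0.81 with all libraries and 0.0428 without replicate 2). For 19 of the 35 genes the 3 cattle–yaks lay between Y18M replicate 2 above and Y18M replicates 1 and 3 below, against 8.68% of all tested genes. The 8 genes called without replicate 2 were *SYCP2*, *SYCE1* and *SYCE2* of the synaptonemal complex, *MEIOB* and *SPATA22*, which bind single-stranded DNA in recombination, the crossover helicase *HFM1*, and *TERB2* and *SPDYA*, which attach telomeres to the nuclear envelope. *MEIOB* was at 0.74, 29.7 and 1.80 in Y18M and 27.2, 9.90 and 15.03 in CY, and CY replicate 1 was the highest cattle–yak for *SYCP1*, *SYCP2* and *MEIOB* alike.

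The piRNA pathway, which silences transposons in germ cells, showed 0 DTGs among 21 genes with all libraries. Without Y18M replicate 2, 4 were higher (19%, against 7.22% of all tested genes) and 1 was lower (4.76%, against 8.04%). *PIWIL1*, the PIWI protein of spermatocytes and round spermatids, was at 0.13, 206 and 0.98 in Y18M and 31.9, 12.7 and 7.40 in CY, so that all cattle–yaks were above replicates 1 and 3 and below replicate 2. Its log2 fold change was −1.98 with all libraries (adjusted p = 0.531) and 4.80 without replicate 2 (adjusted p = 0.0218). *PIWIL4*, of fetal and early germ cells, had 4.02, 1.76 and 4.06 in Y18M and 1.79, 1.18 and 1.44 in CY and was called lower without replicate 2 (adjusted p = 0.0144). *PIWIL2* was at 14.4, 36.5 and 36.7 in Y18M and 29.3, 26.4 and 26.8 in CY and overlapped between the groups.

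**Figure D2:**
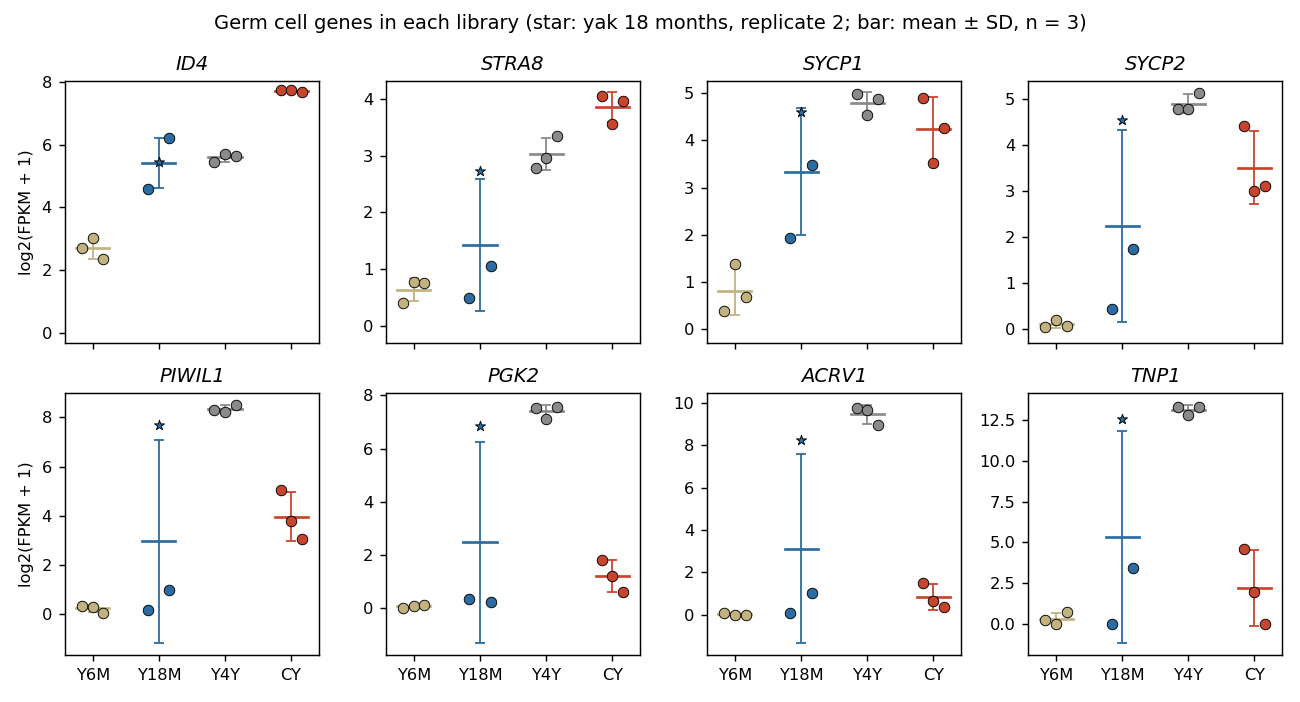
Translation level as log2(FPKM + 1) of 8 germ cell genes in all 12 libraries by group, with points for libraries, a star for Y18M replicate 2, and bars for the mean ± SD of 3 libraries. The star lies with the yaks of 4 years for *PIWIL1*, *PGK2*, *ACRV1* and *TNP1*, and the cattle–yaks reach or exceed the yaks of 4 years for *ID4* and *STRA8* but not for the 4 late genes.

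For genes of late spermatocytes, the median was −1.73 with all libraries and 1.87 without Y18M replicate 2. Of 16 genes, 0 and then 5 were higher (31.2%, against 7.22% of all tested genes). Replicate 2 was the highest of the 6 libraries for all 16 genes, against 28.9% of all tested genes. The cattle–yaks were between it and the other 2 yaks for 12, against 8.68% of all tested genes. *PGK2*, the phosphoglycerate kinase of sperm, had an FPKM of 0.26, 114 and 0.16 in Y18M and 2.49, 1.31 and 0.51 in CY. *HSPA2*, a chaperone of the synaptonemal complex, had 58.8, 296 and 29.6 in Y18M and 147, 81.9 and 92.7 in CY, and *CCNA1*, the cyclin of the meiotic divisions, had 1.64, 34.5 and 2.22 in Y18M and 2.47, 2.46 and 2.13 in CY. *CCNA1* in cattle–yak was thus at the level of Y18M replicates 1 and 3, whereas *HSPA2* was above both.

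Genes of round spermatids and the acrosome had a median of −3.79 over 15 genes, and of 0.86 over 16 genes without replicate 2. *ACRV1*, a protein of the acrosome, was at 0.06, 305 and 1.05 in Y18M and 1.85, 0.55 and 0.28 in CY, and *ACRBP* was at 6.74, 198 and 4.37 in Y18M and 5, 5.61 and 2.31 in CY. The acrosomal protease *ACR* was at 0, 153 and 0.56 in Y18M and 1.19, 0.49 and 0.25 in CY. Over 20 genes of elongating spermatids the median was −5.60, and 0.21 without replicate 2. The summed FPKM of these 20 genes was 39.9, 11630 and 60.6 in Y18M replicates 1, 2 and 3 and 211, 103 and 106 in CY, beside 15240 to 19720 in Y4Y. With all libraries 0 genes of both lists passed the test, at adjusted p of 0.148 for *ACRV1*, 0.178 for *TNP1* and 0.112 for *PRM2*. Without replicate 2, 3 genes of elongating spermatids were higher (15%, against 7.22% of all tested genes), *ODF2*, *CABYR* and *SPATA18*. The 1 lower gene was *ACE* (5%, against 8.04%). In the round spermatid list *ZPBP* was the 1 higher gene (6.25%, against 7.22%). Of 5 autosomal retrocopies of X-linked genes, 0 passed the test with all libraries and *RPL10L* was lower without replicate 2 (20%, against 8.04% of all tested genes). *PDHA2* was at 0.04, 102 and 0.21 in Y18M and 1.40, 1.16 and 0.24 in CY. Its FPKM was 0 to 0.05 in Y6M and 117 to 191 in Y4Y. *RPL10L* had the reverse course with age, at 295 to 357 in Y6M and 62.4 to 71.5 in Y4Y, so this entry may not follow late germ cells.

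Of 22 Sertoli cell identity genes, 1 was higher (4.55%, against 3.45% of all tested genes) and 1 lower (4.55%, against 2.34%), with a median of 0.24. Without Y18M replicate 2 it was 2 higher (8.33%, against 7.22%) and 3 lower (12.5%, against 8.04%) of 24. *SOX9*, the transcription factor that specifies Sertoli cells, was at 89.4, 56.9 and 128 in Y18M and 209, 201 and 189.6 in CY (adjusted p = 0.111). *WT1* was at 47.3, 59.5 and 113 in Y18M and 117, 127 and 115 in CY, and *GATA4*, for which the groups overlapped, at 69.6, 37.6 and 73.6 in Y18M and 65.4, 72.98 and 67.3 in CY. *NR0B1*, a nuclear receptor that represses transcription in Sertoli and Leydig cells, was higher, at 13.2, 15.1 and 17.7 in Y18M and 35.5, 28.7 and 35.8 in CY (log2 fold change 1.09 ± 0.19 SE, adjusted p = 0.031). For *SOX9* and *WT1* each cattle–yak exceeded each of the 9 yaks although the test was not passed.

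Of 15 genes of the blood–testis barrier, 1 was higher (6.67%, against 3.45% of all tested genes) and 1 lower (6.67%, against 2.34%). Without Y18M replicate 2, *TJP3* was higher (6.67%, against 7.22%) and *CLDN5* and *CXADR* were lower (13.3%, against 8.04%). The CPM of the groups were apart for 11 of the 15, 7 higher and 4 lower in CY. Of all tested genes, 38.6% were apart, 19.8% higher and 18.9% lower. *GJA1*, the gap junction protein connexin 43, was at 137, 104 and 152 in Y18M and 323, 294 and 339 in CY (log2 fold change 1.13 ± 0.23 SE, adjusted p = 0.0435), and it was the 1 named DTG whose call was lost without replicate 2, where the log2 fold change was 0.92. *CLDN11*, the main claudin of the barrier, was at 75.2, 574 and 749.6 in Y18M and 1417, 1623 and 1586 in CY (adjusted p = 0.158). Y18M replicate 1 was far below the other 2 yaks for *CLDN11* and above the Y6M FPKM of 4.71 to 18.4, and all cattle–yaks were above all yaks. *TJP1*, which links junctions to actin, was at 15.6, 17.9 and 30.04 in Y18M and 43.4, 38.9 and 29.9 in CY. *CLDN5*, which is listed for Sertoli cells, the barrier and endothelial cells, is the lower DTG of all 3 lists.

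Genes of Sertoli cell immaturity and its hormones had a median of −0.69, with 0 higher and 2 lower of 16 (12.5%, against 2.34% of all tested genes). Without Y18M replicate 2 the median was −0.92, with 1 higher (6.25%, against 7.22%) and 4 lower (25%, against 8.04%). *INHA*, the inhibin α subunit that restrains FSH, had an FPKM of 5964, 1807 and 2568 in Y18M and 716, 950.3 and 945 in CY, which do not overlap (adjusted p = 0.0658, and 0.0147 without replicate 2). *THRB*, a receptor of thyroid hormone, was at 5.99, 3.09 and 2.46 in Y18M and 0.98, 0.81 and 0.9 in CY (log2 fold change −2.30 ± 0.50 SE, adjusted p = 0.0479). *FST*, which binds activin, was at 2.84, 2.83 and 2.72 in Y18M and 1.01, 0.93 and 0.73 in CY (log2 fold change −1.80 ± 0.35 SE, adjusted p = 0.039). However, *FST* was at 0.55 to 0.94 in Y6M and 0.92 to 1.29 in Y4Y. *THRB* was at 6.07 to 7.62 in Y6M and 3.39 to 6.04 in Y4Y, which overlaps with Y18M. Neither called gene thus fell steadily with age in the yaks, whereas *INHA* was at 5825 to 7288 in Y6M and 494 to 703 in Y4Y. *FSHR* and *INHBA*, at 51.1, 21.8 and 25.7 and 217, 112 and 110.3 in Y18M, overlapped with CY, where they were at 17.2, 30.3 and 24.6 and 138, 109 and 112.

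Of 17 genes of steroid synthesis in Leydig cells, 1 was higher (5.88%, against 3.45% of all tested genes) and 0 lower, with a median of 0.20 and, without replicate 2, of −0.03. *STAR*, which carries cholesterol into mitochondria, was at 768, 312 and 344 in Y18M and 489.8, 881 and 499.7 in CY, *CYP11A1*, which cleaves its side chain, was at 142, 48.6 and 48.1 in Y18M and 126, 159.5 and 80.5 in CY, and *HSD3B1* was at 96.5, 46.97 and 55.6 in Y18M and 64.8, 47.7 and 53.1 in CY. None of these 3 passed the test, with adjusted p of 0.824, 0.656 and 0.429. *INSL3*, the peptide hormone of mature Leydig cells, was at 36600, 20290 and 29730 in Y18M and 17710, 19140 and 17020 in CY and was called lower without replicate 2 (log2 fold change −1.12, adjusted p = 0.026). *ACAA2*, a thiolase of fatty acid oxidation, was the higher DTG, at 31.9, 34 and 36.8 in Y18M and 80.5, 85.3 and 83.6 in CY (log2 fold change 1.14 ± 0.15 SE, adjusted p = 0.023).

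The 25 genes of Leydig progenitors and interstitial stroma had a median of −0.42, and of −0.57 without Y18M replicate 2. With all libraries, 1 of the 25 genes was higher (4%, against 3.45% of all tested genes) and 0 were lower. *PDGFRA*, *NR2F2* and *NR2F1* did not pass the test. Without replicate 2, 2 of the 25 genes were higher (8%, against 7.22% of all tested genes), among them *IGF1*. The 3 lower genes were *PTCH1*, *HEYL* and *PDGFRB* (12%, against 8.04%). Of 24 enzymes of cholesterol synthesis 0 passed, and *HMGCS1* was at 42.2, 87.6 and 72.02 in Y18M and 206, 126 and 116 in CY (adjusted p = 0.0775, and 0.0414 without replicate 2). *MVK*, the mevalonate kinase, was at 8.38, 18.3 and 15.8 in Y18M and 32.2, 22.6 and 23.6 in CY, which do not overlap, and did not pass the test (adjusted p = 0.144). Without replicate 2, *HMGCS1* was higher (4.17%, against 7.22% of all tested genes) and *SREBF2*, a transcription factor of this pathway, lower (4.17%, against 8.04%). Of 29 smooth muscle genes, *SMTN*, smoothelin of contractile cells, was the 1 DTG (3.45%, against 3.45% of all tested genes higher). It was at 6.88, 12.3 and 10.5 in Y18M and 29.6, 22.7 and 26.01 in CY (log2 fold change 1.34 ± 0.19 SE, adjusted p = 0.026). *ACTA2* was at 167, 258 and 667 in Y18M and 579, 746 and 424 in CY and overlapped, and *MYH11* and *ACTG2* did not pass the test. Without replicate 2, *SMTN* was higher (3.45%, against 7.22% of all tested genes) and *MYL6*, *FLNA* and *NOTCH3* were lower (10.3%, against 8.04%).

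The median fold change of matrix genes was below that of all genes. The median over 49 genes was −0.59, with 1 higher (2.04%, against 3.45% of all tested genes) and 2 lower DTGs (4.08%, against 2.34%). Without Y18M replicate 2 the median was −0.73, with 1 higher (2.04%, against 7.22%) and 10 lower (20.4%, against 8.04%). *COL4A5* and *COL4A6*, the α5 and α6 chains of basement membrane collagen, were the lower DTGs with all libraries. *COL4A5* was at 267, 97.2 and 102 in Y18M and 30.2, 37.1 and 35.5 in CY (log2 fold change −2.40 ± 0.52 SE, adjusted p = 0.0473). Without replicate 2, *COL4A1*, *COL4A2*, *COL4A3*, *COL6A3*, *LAMA2*, *LAMB1*, *LAMB2* and *LUM* were lower as well. Of the fibrillar collagens, *COL1A1* was at 138, 59.3 and 114 in Y18M and 85.01, 155 and 109.6 in CY (adjusted p = 0.981), while *COL3A1* was at 127, 57.7 and 124 in Y18M and 90.9, 146 and 103 in CY. *PCOLCE*, which enhances the maturation of procollagen, was higher, at 25.9, 40.4 and 37.9 in Y18M and 62.4, 104 and 91.2 in CY (log2 fold change 1.19 ± 0.23 SE, adjusted p = 0.0379). In the adult yak the type I and III collagens were lower than in both groups, with 18.4 to 19.96 for *COL1A1*.

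Of 19 matrix proteases and inhibitors, 0 passed the test with all libraries and 4 were lower without replicate 2 (21.1%, against 8.04% of all tested genes), with a median of −0.70 and −0.96. *MMP2*, a gelatinase, was at 87.3, 46.95 and 80.05 in Y18M and 24.98, 42.1 and 23.4 in CY, which do not overlap (adjusted p = 0.0711, and 0.0155 without replicate 2). *MMP14*, which activates it, was at 18.4, 11.6 and 13.8 in Y18M and 8.88, 13.3 and 8.50 in CY and overlapped, and *MMP19* did not pass the test. The other 3 genes lower without replicate 2 were *MMP23B*, *TIMP3* and *SERPINA5*.

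Among 23 imprinted and juvenile growth genes, 1 was higher (4.35%, against 3.45% of all tested genes) and 3 were lower (13%, against 2.34%). Without Y18M replicate 2, 2 were higher (8.7%, against 7.22%) and 8 lower (34.8%, against 8.04%). The binding proteins of insulin-like growth factors moved in opposite directions. *IGFBP2* was at 178, 265 and 133 in Y18M and 928, 1204 and 1109 in CY (log2 fold change 2.37 ± 0.28 SE, adjusted p = 0.0201), and *IGFBP3* was at 20.1, 12.5 and 30.03 in Y18M and 3.57, 4.58 and 3.16 in CY (log2 fold change −2.62 ± 0.41 SE, adjusted p = 0.0289). *NNAT*, an imprinted gene for a membrane proteolipid, was at 144, 295 and 376 in Y18M and 39.7, 41.9 and 57.5 in CY (log2 fold change −2.65 ± 0.34 SE, adjusted p = 0.023), and *IGF2BP2*, which binds growth factor mRNA, was at 8.43, 6.95 and 8.54 in Y18M and 3.25, 2.70 and 3.17 in CY (log2 fold change −1.57 ± 0.28 SE, adjusted p = 0.0342). *IGFBP2* was above and *IGFBP3* and *NNAT* were below all 9 yak libraries in each cattle–yak. *IGF1* itself was at 25.7, 24.9 and 24.8 in Y18M and 63.3, 95.3 and 47.6 in CY (adjusted p = 0.0534, and 0.042 without replicate 2), while its receptors *IGF1R* and *IGF2R* overlapped between the groups.

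Genes of blood cells had fold changes below those of most lists. For 17 genes of T, B and mast cells the median was −1.51, with 0 higher and 2 lower (11.8%, against 2.34% of all tested genes). Without Y18M replicate 2 the median was −1.69, with 0 higher and 10 lower (58.8%, against 8.04%). *GZMA*, a protease of cytotoxic lymphocytes, had an FPKM of 13.4, 6.26 and 9.17 in Y18M and 0.4, 0.48 and 0.55 in CY (log2 fold change −4.52 ± 0.51 SE, adjusted p = 0.0185). *CD247*, the ζ chain of the T cell receptor, was at 19.2, 22.1 and 14.1 in Y18M and 5.31, 9.04 and 5.30 in CY (log2 fold change −1.65 ± 0.36 SE, adjusted p = 0.0483). The T cell receptor chains *CD3D* and *CD3G* were at 40.99, 16.6 and 35.5 and 45.9, 15.7 and 36.6 in Y18M and at 9.01, 16.3 and 12.1 and 7.34, 11.9 and 11.5 in CY, with adjusted p of 0.0142 and 0.00939 without replicate 2. In Y4Y, *CD3D* was at 4.81 to 10.06 and *CD3G* at 5.29 to 8.27, but *CD247* was at 26.6 to 28.8. *CD247* was thus above its Y18M level in the adult yak, unlike these 2 chains, and may not follow T cells alone. The summed FPKM of the list was 276, 166 and 220 in Y18M and 85.3, 123 and 115 in CY. In Y4Y it was 117 to 131. By this sum each cattle–yak was below each yak of 18 months, and 1 of the 3 was above the lowest adult yak. The list includes *KIT*, described above for spermatogonia and Leydig cells. It made up 53.8, 53.5 and 45.05 of the sums in Y18M, 43.5, 49.2 and 56.5 in CY and 39.4 to 47.3 in Y4Y. The sum therefore does not follow blood cells alone.

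For 19 macrophage genes the median was −0.67, with 1 higher (5.26%, against 3.45% of all tested genes) and 1 lower (5.26%, against 2.34%). Without replicate 2 the median was −0.93, with 2 higher (10.5%, against 7.22%) and 7 lower (36.8%, against 8.04%). *CX3CR1*, the fractalkine receptor, was at 6.69, 2.80 and 5.93 in Y18M and 1, 0.68 and 0.24 in CY (log2 fold change −3.18 ± 0.68 SE, adjusted p = 0.0455). *CD163*, the scavenger receptor of resident macrophages, went the other way, at 4.41, 7.28 and 9.59 in Y18M and 15.6, 18.2 and 18.4 in CY (log2 fold change 1.19 ± 0.25 SE, adjusted p = 0.0453). *CSF1R* was at 22.5, 12.9 and 22.5 in Y18M and 12.3, 18.4 and 13.3 in CY and *CD68* at 5.47, 5.52 and 8.41 in Y18M and 4.01, 4.69 and 2.91 in CY, and neither passed the test. The genes lower without replicate 2 were *AIF1*, *C1QA*, *C1QB*, *VSIG4*, *TYROBP*, *CD74* and *CX3CR1*. Among these, *AIF1* was at 23.98, 124.5 and 35.6 in Y18M and 175 to 220 in Y4Y, so this entry may not follow macrophages alone. Of 21 interferon-induced genes, *CXCL10*, a chemokine for T cells, was the 1 DTG and was lower (4.76%, against 2.34% of all tested genes). It was at 116, 42.4 and 60.3 in Y18M and 14.6, 20.1 and 16.01 in CY (log2 fold change −2.31 ± 0.49 SE, adjusted p = 0.0456). *MX1*, *ISG15* and *OAS2* overlapped between the groups. Without replicate 2, *IFIT3*, *CXCL9*, *CD74* and *CIITA* were lower as well, so 5 of the 21 were lower (23.8%, against 8.04% of all tested genes). Among 21 endothelial genes *CLDN5* was the 1 DTG and was lower (4.76%, against 2.34% of all tested genes). Of the markers, *CDH5* was at 4.79, 4.47 and 5.37 in Y18M and 6, 5.28 and 4.70 in CY. It did not pass the test, and neither did *PECAM1* and *VWF*. The endothelial co-receptor *ENG* was lower as well without replicate 2, so 2 of the 21 endothelial genes were lower (9.52%, against 8.04% of all tested genes).

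**Figure D3:**
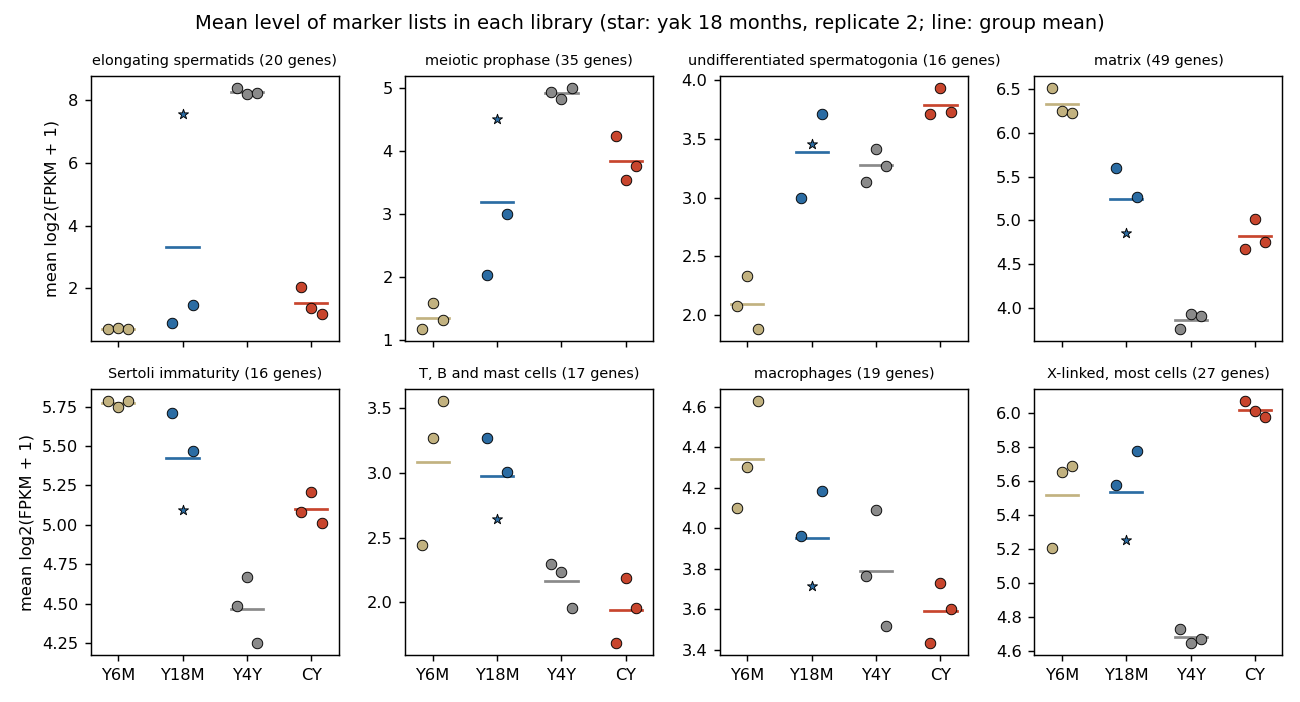
Mean of log2(FPKM + 1) over the tested genes of 8 marker lists in each of the 12 libraries, with lines for group means and a star for Y18M replicate 2. The cattle–yaks overlap with or lie below the yaks of 4 years for T, B and mast cells. They lie between the group means of yaks of 18 months and 4 years for matrix genes, and above all yaks for X-linked genes used in most cells. FPKM in CY was above all 9 yaks for 17.3% of all tested genes and below them for 4.16%. Without replicate 2 the median log2 fold change of the X-linked genes was −0.01, beside −0.03 for all tested genes.

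Immediate early and stress genes are known to respond to the handling of tissue. Of 29 genes, 2 were higher (6.9%, against 3.45% of all tested genes) and 0 lower. Of 30 without Y18M replicate 2, 3 were higher (10%, against 7.22%) and 2 lower (6.67%, against 8.04%). *EGR1*, an immediate early transcription factor, was at 2.96, 4.42 and 4.79 in Y18M and 19.1, 11.1 and 9.52 in CY (log2 fold change 1.59 ± 0.34 SE, adjusted p = 0.0449), and *MT2A*, a metallothionein, was at 24.4, 38.7 and 40.95 in Y18M and 203, 121 and 252 in CY (log2 fold change 2.36 ± 0.33 SE, adjusted p = 0.0248). *FOS* was at 1.40, 2.56 and 15.7 in Y18M and 65.6, 9.79 and 9.23 in CY, with CY replicate 1 highest, and *FOSB* and *FOSL2* did not pass the test. Their part in other differences was not tested.

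Of 32 genes of DNA replication and mitosis, 1 was higher (3.125%, against 3.45% of all tested genes) and 1 lower (3.125%, against 2.34%). *CDKN1A*, the cell cycle inhibitor p21, was higher, at 31.8, 71.3 and 68.4 in Y18M and 178, 224 and 227 in CY (log2 fold change 1.78 ± 0.27 SE, adjusted p = 0.0278). *CCND2* was lower. *MCM2*, a subunit of the replicative helicase, was at 27.99, 44.7 and 51.5 in Y18M and 88.6, 67.2 and 71.7 in CY, *PCNA* at 165, 226 and 194 in Y18M and 279.9, 292 and 265 in CY, and *TOP2A* at 5.06, 35.5 and 15.7 in Y18M and 47.6, 25.5 and 27.9 in CY, and none of the 3 passed the test. Without replicate 2, *CDC6* and *CCNE2* were higher and *CDKN1C* lower in addition. This made 3 higher (9.38%, against 7.22% of all tested genes) and 2 lower (6.25%, against 8.04%). *MCM2* and *PCNA* were higher in each cattle–yak than in each of the 9 yaks.

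Among metabolic genes, 1 of 22 subunits of oxidative phosphorylation was a higher DTG (4.55%, against 3.45% of all tested genes). It was also called without replicate 2 (4.55%, against 7.22%). The groups did not overlap for 11 of the 22, and all 11 were higher (the share of all tested genes apart and higher was 19.8%). *NDUFS1*, of complex I, was at 68.8, 79.9 and 84.4 in Y18M and 247, 195 and 197 in CY (log2 fold change 1.33 ± 0.17 SE, adjusted p = 0.0234). *NDUFA10* was at 106, 125 and 180.2 in Y18M and 272, 301 and 274 in CY (adjusted p = 0.0513), and *NDUFA8* and *NDUFA9* did not pass the test. Of 27 antioxidant enzymes, *GPX1*, the main cytosolic glutathione peroxidase, was the 1 DTG and was lower (3.7%, against 2.34% of all tested genes). It was at 961, 499.5 and 749 in Y18M and 158, 191 and 148 in CY (log2 fold change −2.33 ± 0.35 SE, adjusted p = 0.027), below all 9 yaks. Without replicate 2, *GPX7*, *GPX8* and *CAT* (catalase) were lower as well, so 4 of the 27 were lower (14.8%, against 8.04% of all tested genes). No glutathione transferase of the list passed the test, with *GSTA1* at 5346, 2852 and 2701 in Y18M and 6374, 4333 and 5418 in CY.

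Of 27 X-linked genes that most cells use, 1 was a DTG and was higher (3.7%, against 3.45% of all tested genes). This was *AIFM1*, a mitochondrial flavoprotein of the respiratory chain and cell death. It was at 31.8, 29.4 and 39.4 in Y18M and 162, 146 and 165 in CY (log2 fold change 2.03 ± 0.20 SE, adjusted p = 0.0132). *PDHA1*, of pyruvate dehydrogenase, was at 74.7, 40.3 and 64.3 in Y18M and 159, 134 and 134 in CY (adjusted p = 0.0852), and *PGK1* did not pass the test. The 27 genes had a median of 0.19, and −0.01 without replicate 2, beside −0.13 and −0.03 for all tested genes. Without replicate 2, *PHF6* was lower in addition (3.7%, against 8.04% of all tested genes).

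**Figure D4:**
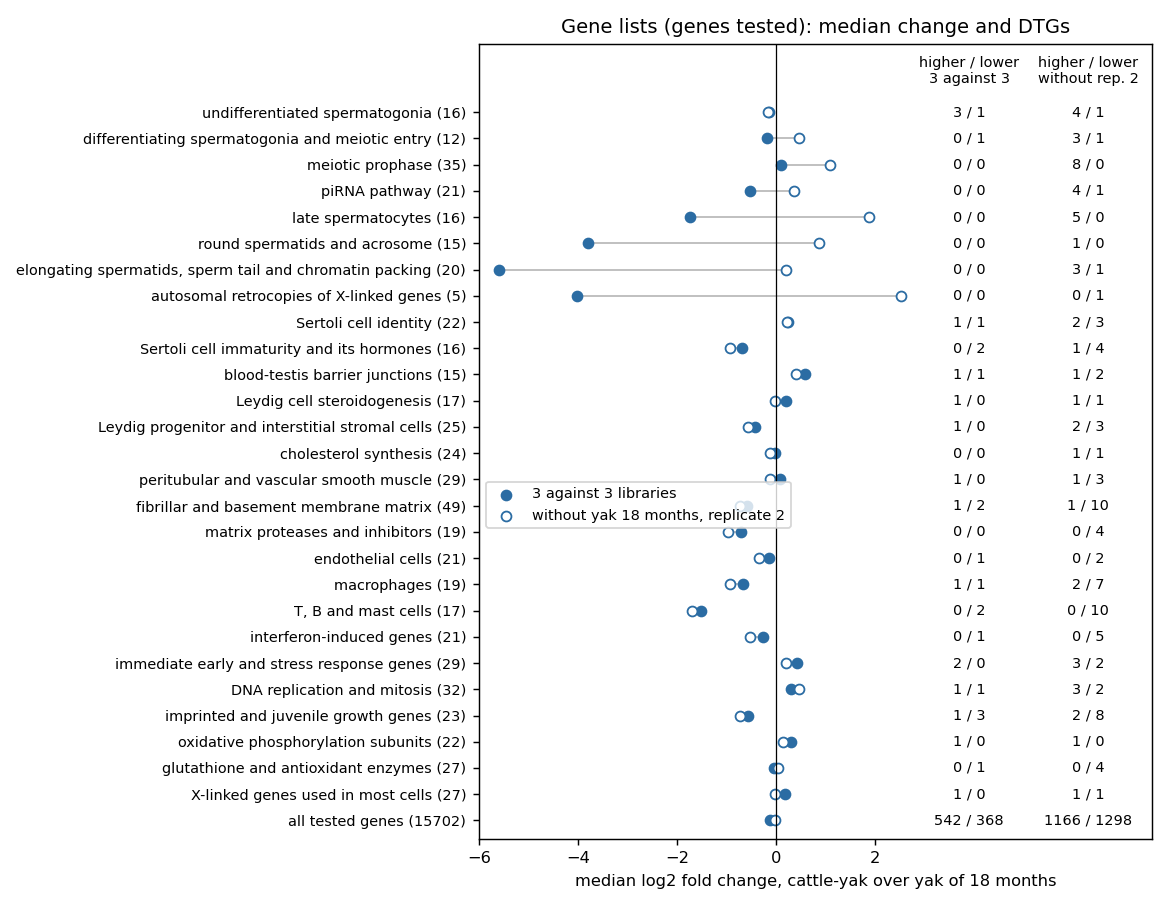
Median log2 fold change of cattle–yak over yak of 18 months for 27 gene lists and all tested genes, with the number of genes tested in parentheses, filled points for all 6 libraries, open points without Y18M replicate 2, and the numbers of higher and lower DTGs at the right. The medians of late germ cell lists move from −1.73 or lower to 0.21 or higher when replicate 2 is left out, whereas those of somatic lists move little.

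A separate group of DTGs was at or near the limit of detection in 1 group. In every Y18M library, 51 tested genes had at most 3 counts, and 43 of these were among the 542 higher DTGs. Such genes passed the filter on low counts only through CY, so a call as higher was largely fixed in advance. No symbol is given for 41 of the 43, for 156 of the 542 and for 4218 of the 15702 tested genes. Of the 43, 22 had at most 3 counts in all 9 yak libraries. One gene without a symbol (ENSBGRG00000013984) is described in the deposited table as 60S acidic ribosomal protein P1, and it had 0 counts in each Y18M library and 1931, 1811 and 2874 in CY, which is at least 369.6-fold higher when 3 counts are taken for each yak library. Another (ENSBGRG00000006818), described as leucine zipper transcription factor-like protein 1, had 0 counts in each Y18M library and 1598, 606 and 736 in CY, at least 152-fold higher. Among the 2 with a symbol was *SHH*, the hedgehog ligand, with 0, 2 and 0 counts in Y18M and 100, 246 and 169 in CY, a ratio of summed counts per library total of 126 (95% exact interval for counting error only 34.7 to 1040, adjusted p = 0.0282). These genes were chosen after their values were seen, and reads of hybrid testes were aligned to a yak genome, where near-identical copies of a gene can divide its reads, so the entries without a symbol are uncertain.

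In the opposite direction, 17 tested genes had at most 3 counts in every CY library, and 13 of these were among the 368 lower DTGs. They passed the filter only through Y18M, so this direction was largely fixed in advance as well. Of the 13, 10 have no symbol, and 6 of those are described as endonuclease-reverse transcriptase. *PDIA2*, a protein disulfide isomerase, had 1331, 170 and 56 counts in Y18M and 1, 2 and 0 in CY, and the level in Y18M rested largely on replicate 1. Its FPKM was 14.79 to 36.05 in Y6M and 0 to 0.03 in Y4Y, so the adult yaks were near the limit of detection as well. One gene without symbol or description (ENSBGRG00000018450) had the second highest mean count of all genes in Y18M. It held 2.61%, 2.16% and 2.81% of the counts of the Y18M libraries and 0.00546%, 0.00782% and 0.00812% of those of CY (log2 fold change −8.62 ± 0.55 SE, adjusted p = 0.00436), and its share was 1.196% to 2.74% in the Y6M and Y4Y libraries. All 9 yaks thus shared a high level of this entry that no cattle–yak had. Whether this came from the animals or from the libraries was not tested.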

How the data were processed

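Ribo-seq libraries of testis from 3 cattle–yaks and 3 yaks of 18 months were analysed, each taken as 1 animal. The expected counts per gene were made by the authors with RSEM, after rRNA reads were removed with Bowtie2 and the rest aligned to a yak genome, and deposited as whole numbers. The authors' FPKM sets these counts relative to gene length and library total. Columns of the authors' own fold changes, p-values and group means were not used. The deposited tables hold 20965 genes, 13662 with a symbol. Another 42 were named from the deposited description of the gene.

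Low counts were removed with filterByExpr and libraries scaled by TMM. The groups were compared with the quasi-likelihood test of edgeR 4.0.16 (R 4.3.3), with Benjamini-Hochberg adjustment over all tested genes. Standard errors (SE) were approximated by dividing the size of the log2 fold change by the square root of F. Alternatives were DESeq2 1.42.0, other scalings, no filter, a single fit of all 12 libraries, limma 3.58.1 on log2(FPKM + 1) and log2(FPKM + 0.1), a block for the replicate number, and leaving out each library. Further fits were added after the data had been seen, DESeq2 with each library left out and edgeR without Y18M replicate 2 and CY replicate 1. Scripts were tested on simulated data. Summaries and figures used pandas 2.3.3 and matplotlib 3.10.9.

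The groups and the 27 gene lists were chosen with earlier results of these data known. Of 790 listed symbols, 607 were found and 568 tested. Named genes were the 12 highest and 12 lowest fold changes described in the text, up to 4 DTGs in each direction of each list, and the first 3 tested symbols of each list. Others that passed the test without Y18M replicate 2 are named as such. A few genes that the rule takes are not reported here. No positions or sequences were used.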

Additional observations from a re-analysis of the deposited data

How the results depend on the processing

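The number of DTGs depended strongly on the fit. With all 6 libraries there were 542 higher and 368 lower DTGs. RLE scaling, upper quartile scaling and library size alone gave 395 to 593 higher and 305 to 380 lower. DESeq2 gave 1016 higher and 1417 lower, and a single fit of all 12 libraries 903 and 1710. Limma gave 816 higher and 305 lower on log2(FPKM + 1), and 859 and 359 on log2(FPKM + 0.1). Without a filter there were 421 higher and 178 lower. With each library left out in turn, edgeR gave 0 to 1166 higher and 0 to 1298 lower, with 0 for each CY library and the highest numbers without Y18M replicate 2. DESeq2 gave 790 to 1608 higher and 958 to 1947 lower in these fits, which were added after the data had been seen. Without Y18M replicate 2 and CY replicate 1, also added, edgeR gave 358 higher and 200 lower. The share of DTGs that were lower was 40.4% in the main comparison, 58.2% with DESeq2, 65.4% with all 12 libraries and 27.2% with limma on log2(FPKM + 1). No gene changed its direction between the DTGs of the main comparison and those of any of these fits. The cause of the differences between fits was not tested.

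With the replicate number as a block, 1 higher and 0 lower DTGs were left, with 3154 genes at an unadjusted p under 0.05. The correlation of deviations from the group means was −0.30, −0.14 and 0.12 for same-numbered libraries, and −0.20 to 0.33 for the others. With 3 libraries a group, these values cannot decide whether the numbers pair the animals.

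Of the 53 named DTGs, all 53 lost the call when 1 CY library was left out, 18 without Y18M replicate 1, 32 without Y18M replicate 3 and 1 without Y18M replicate 2, while DESeq2 called all 53. Of the 77 named genes that were not called, 11 were called without Y18M replicate 2 and 14 had the other sign there. The mean correlation of CY with Y18M libraries was 0.648 with FPKM and 0.922 with Spearman's rank, and was higher than that with Y6M or Y4Y libraries in both. With 3 libraries a group and a yak group as uneven as this one, a difference that did not pass the test may still be large.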
